A study of Homo sapiens with 6 samples.

Results

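Syndecans and glypicans were examined in HuCCT1 cells, a line of human intrahepatic cholangiocarcinoma, the cancer of the bile ducts inside the liver. The set comprised all 4 syndecan genes (SDC1 to SDC4) and all 6 glypican genes (GPC1 to GPC6), found by symbol, 10 of the 20811 genes in the deposited table. THY1 encodes CD90, and a lentivirus named human THY1-CMV-GFP had been put into the HuCCT1/CD90+ cells. The HuCCT1/CD90− cells had received Lenti-CMV-GFP-2A-Puro-Blank virus, which lacks that gene. No other treatment is given for either line; both carried GFP constructs under a CMV promoter and grew in the same serum-containing medium, and 3 libraries of total RNA were made from each. The sources used here do not say whether a line was 1 clone or a pool, or whether the libraries came from separate cultures, so the p-values measure the spread between these libraries, which may be technical. Effects of CD90 itself, of virus insertion and of separate growth of the lines cannot be told apart in this design.

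Heparan sulfate proteoglycans are core proteins that carry long, sulfated sugar chains on the cell surface. Syndecans cross the membrane and have a short cytoplasmic tail that binds kinases and PDZ-domain adaptor proteins. Glypicans are held on the outer face of the membrane by a GPI anchor, the same kind of anchor that holds CD90. The sulfated chains bind growth factors, WNT and Hedgehog proteins, chemokines and matrix proteins, and the extracellular parts can be shed. CD90 is known to bind integrins and syndecan-4 on other cells. In liver tumours GPC3 is best known as a marker of hepatocellular carcinoma.

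Members of both families differed between the lines. SDC2 (13.9-fold by mean RPM) and GPC4 (266-fold by summed reads, exact 95% interval 73.3 to 2203) were higher in HuCCT1/CD90+ cells. GPC6 was lower there (130-fold by summed reads, exact 95% interval 59.3 to 354). The folds of GPC4 and GPC6 rest on 2 and 6 reads in the line where each was low. With the replicate number as a block in the fit the call of SDC2 was lost (adjusted p = 0.051 from limma), which left 2 of these 3. SDC4 and SDC3, with the most syndecan reads, and GPC1, with the most glypican reads on average, did not pass the test. SDC1 did not pass it either, but SDC1 and SDC3 were called under some of the other settings given below. Each gene was read from 1 short amplicon, and values are in RPM, read counts brought to 1 common library total. The libraries held 9345680 to 10551516 reads in HuCCT1/CD90− and 8587634 to 9327650 in HuCCT1/CD90+, so that 3 reads were worth 0.284 to 0.349 RPM. A gene counted as at the detection floor of a line where no library of that line had over 3 reads; floors and count intervals cover counting error only, because PCR reads without molecular identifiers are not independent molecules. The lines were compared by limma over all genes on the scale log2(RPM + 1), which understates changes of weak genes, and a gene was called at a Benjamini-Hochberg adjusted p of at most 0.05. Of the 10 members 3 were called, 2 higher and 1 lower, while 18.9% of all genes were called, 9.41% higher and 9.52% lower. With the block 2 members and 13.1% of all genes were called. GPC2, GPC3 and GPC5 were at the floor in both lines. Of the 7 members above it in either line, 5 had libraries that did not overlap between the lines, and 50.4% of all 14098 genes above the floor did the same. The share of members called was therefore not read as a result.

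The identity of the cells was checked first. THY1 reads numbered 0, 1 and 0 for HuCCT1/CD90− and 435, 445 and 680 for HuCCT1/CD90+. All HuCCT1/CD90+ libraries were higher. The log2 fold change was 5.79 (SE 0.19, adjusted p = 0.00045 from limma), and reads of the introduced copy and of the cell's own gene were not separated. Epithelial markers of bile duct cells (KRT7, KRT19, KRT8, KRT18, EPCAM and SOX9) summed to 8199 to 9306 RPM for HuCCT1/CD90− against 10940 to 11680 RPM for HuCCT1/CD90+, and 4 of the 6 were called higher (2 with the replicate number as a block). Most of that sum came from KRT7 and KRT19, and EPCAM, an epithelial adhesion protein, rose 12.7-fold, from 28.6 to 363 RPM (a log2 change of 3.62, adjusted p = 0.00070 from limma). Fibroblast and stellate markers summed to 41.8 to 64.9 against 20.3 to 24.7 RPM, with 5 of 6 called lower (2 with the block). Endothelial markers summed to 14.5 to 23.2 against 0.643 to 1.51 RPM, with 1 of 3 called lower (CDH5), and leukocyte markers to 46.5 to 55.9 against 83.9 to 100.5 RPM, where CD68 was called higher and PTPRC and CD3E were at the floor. Among hepatocyte markers TTR had no reads and ALB, APOB and CYP3A4 were at the floor; the list summed to 1.52 to 1.94 against 0 to 0.581 RPM, with SERPINA1 called lower, though not with the block. The part of these marker shifts in the results below was not tested.

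**Figure D1:**
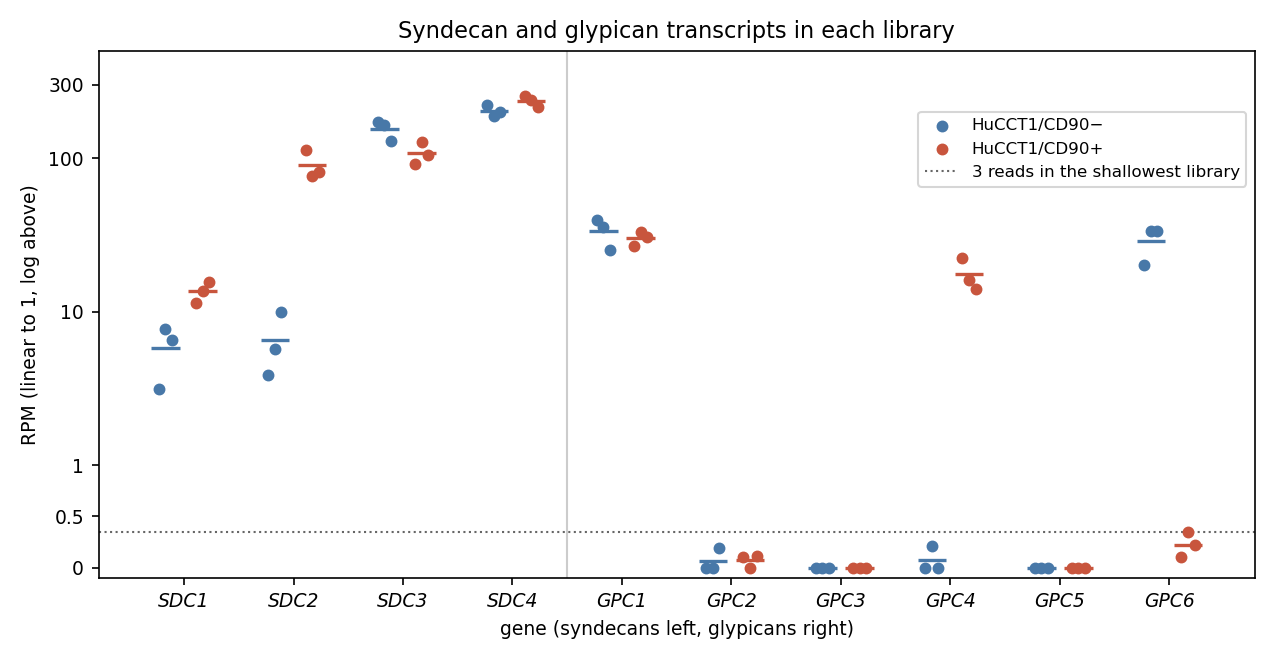
RPM of each syndecan and glypican in the 3 libraries of HuCCT1/CD90− (blue) and of HuCCT1/CD90+ (red), on an axis that is linear up to 1 RPM and logarithmic above it, with bars at the means and a dotted line at 3 reads in the shallowest library. SDC2 and GPC4 lie higher and GPC6 lies lower in HuCCT1/CD90+ without overlap, while GPC2, GPC3 and GPC5 stay at or under 3 reads in all libraries.

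GPC4 and GPC6, the pair whose levels moved in opposite directions, are close relatives. Among the 15 pairs of glypicans their coding sequences (GENCODE 29) were the most alike, at 69.5% identity over 1644 aligned bases, against 60.4% to 65.1% for the other pairs. GPC4 lies on the X chromosome of GRCh38 at chrX:133300103-133415490, minus strand, and GPC6 on the plus strand at chr13:93226842-94407401. The deposited table names genes without coordinates, and where each amplicon lies in its transcript was not given in the sources used here. The 250 bases before the RefSeq start of each gene (GRCh38.p14) are shown because the starts of this pair differ in base composition. Capitals mark each GC box, GGGCGG or its reverse complement CCGCCC, 5′ to 3′ on the strand of the gene. The GPC4 window is chrX:133415490-133415739 on the minus strand and the GPC6 window is chr13:93226557-93226806 on the plus strand.
GPC4: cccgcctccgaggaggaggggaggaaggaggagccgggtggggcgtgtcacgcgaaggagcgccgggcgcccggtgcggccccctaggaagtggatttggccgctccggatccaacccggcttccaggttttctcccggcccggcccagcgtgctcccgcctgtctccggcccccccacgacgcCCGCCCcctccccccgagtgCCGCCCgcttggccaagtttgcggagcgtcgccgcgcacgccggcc
GPC6: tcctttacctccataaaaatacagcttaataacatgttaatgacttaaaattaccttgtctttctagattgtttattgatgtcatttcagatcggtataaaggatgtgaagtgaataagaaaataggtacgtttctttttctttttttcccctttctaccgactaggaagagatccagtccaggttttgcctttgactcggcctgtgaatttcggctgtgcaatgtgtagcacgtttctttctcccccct

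The GPC4 window held 76.0% G and C, 32 CpG dinucleotides and 2 GC boxes. The GPC6 window held 37.6% G and C, 6 CpG dinucleotides and no GC box. With 50 bases after the start added, the GPC4 window had a higher G and C content than 89.7% and the GPC6 window than 11.3% of all 34943 RefSeq promoter windows, whose median was 58.7%. A GC box on either strand was present in 44.9% of all windows, and CAGGTG or its reverse complement CACCTG, an E-box form, in 20.6% and in neither of these. Matches of letters are descriptions, not binding sites.

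GPC4, which binds growth factors and WNT proteins through its chains, was close to absent from HuCCT1/CD90− cells. It had 0, 0.214 and 0 RPM there, from 0, 2 and 0 reads. In HuCCT1/CD90+ it had 22.5, 16.2 and 14.0 RPM, from 210, 139 and 129 reads. All HuCCT1/CD90+ libraries lay far above all HuCCT1/CD90− libraries. HuCCT1/CD90+ averaged 17.6 ± 4.42 RPM (SD, n = 3), and the summed reads, 478 against 2 and scaled to depth, differed 266-fold (exact 95% interval 73.3 to 2203). The log2 fold change was 4.10 (SE 0.20, 95% CI 3.55 to 4.64, adjusted p = 0.0011 from limma); it rests on the offset of 1 RPM and is not a bound on the fold. In these bulk libraries more cells with a transcript and more transcript per cell cannot be told apart, here and for every gene below.

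GPC6, the nearest relative of GPC4 in coding sequence, moved the opposite way. Its levels in HuCCT1/CD90− were 19.997, 33.3 and 33.3 RPM, and replicate 1 was the lowest. Its levels in HuCCT1/CD90+ were 0.107, 0.349 and 0.217 RPM, or 1, 3 and 2 reads. No library of HuCCT1/CD90+ was above the floor, and every library of HuCCT1/CD90− was. HuCCT1/CD90− averaged 28.8 ± 7.67 RPM (SD, n = 3), and the summed reads, 865 against 6 and scaled to depth, were 130-fold lower in HuCCT1/CD90+ (exact 95% interval 59.3 to 354). The log2 fold change was -4.58 (SE 0.24, 95% CI -5.21 to -3.94, adjusted p = 0.0012 from limma). GENCODE 29 places 5 antisense genes within GPC6, among them GPC6-AS1 and GPC6-AS2; whether the amplicon overlaps one of them is not known.

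Within each library the pair nearly excluded each other. GPC4 gave 0, 0.639 and 0% of the RPM of GPC4 and GPC6 together in HuCCT1/CD90−. It gave 99.5, 97.9 and 98.5% in HuCCT1/CD90+. This share follows from the levels given above and adds no test to them.

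GPC1, the glypican most often described in pancreatic and other epithelial cancers, was read in all libraries. HuCCT1/CD90− had 39.3, 35.8 and 25.0 RPM and HuCCT1/CD90+ 26.7, 33.2 and 30.6 RPM. The libraries of the lines overlapped, and the means were 33.4 ± 7.46 and 30.2 ± 3.27 RPM (SD, n = 3 each). The log2 fold change was -0.12 (95% CI -0.66 to 0.41, adjusted p = 0.83 from limma), an interval that holds both a fall and a rise, and it was 0.0035 without HuCCT1/CD90− replicate 1. One antisense gene and the microRNA gene MIR149 overlap GPC1 in GENCODE 29.

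The remaining glypicans were not detected above the floor. GPC3, the hepatocellular carcinoma marker, and GPC5, which lies next to GPC6 on chromosome 13, had no read in any of the 6 libraries. GPC2, known from the developing nervous system, had 0, 0 and 2 reads in HuCCT1/CD90− and 1, 0 and 1 reads in HuCCT1/CD90+. Because the floor is 3 reads, levels of these genes up to 0.284 to 0.349 RPM were not detectable at this depth, and no fold is given.

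SDC2, a syndecan of mesenchymal and many tumour cells, showed the largest difference among the syndecans. It had 3.89, 5.67 and 9.99 RPM in HuCCT1/CD90− and 113, 76.5 and 81.7 RPM in HuCCT1/CD90+. The lowest HuCCT1/CD90+ library was well above the highest HuCCT1/CD90− library. The means were 6.52 ± 3.14 and 90.4 ± 19.7 RPM (SD, n = 3 each), a 13.9-fold difference. On the log2 scale the change was 3.66 (SE 0.36, 95% CI 2.70 to 4.63, adjusted p = 0.0057 from limma). With the replicate number as a block the size was the same but the adjusted p was 0.051, just past the threshold; over the alternatives it ran from 4.6e-49 to 0.051. With the block and a minimum mean of 1 RPM, a combination chosen after seeing the data, it was 1.0e-05. SDC2 lies on chromosome 8 of GRCh38 at chr8:96493351-96611780, plus strand.

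SDC1, the main syndecan of epithelia, did not pass the test although its libraries did not overlap. It had 3.13, 7.70 and 6.50 RPM in HuCCT1/CD90− and 11.4, 13.6 and 15.6 RPM in HuCCT1/CD90+. The means were 5.78 ± 2.37 and 13.5 ± 2.13 RPM (SD, n = 3 each), a ratio of 2.34. On the log2 scale the difference was 1.16 (SE 0.33, 95% CI 0.27 to 2.05, unadjusted p = 0.021, adjusted p = 0.088 from limma). The call differed between settings: the adjusted p was 0.0034 from limma with only genes of at least 1 RPM, 0.00099 from edgeR and 0.00022 from DESeq2, and over all alternatives it ran from 0.00022 to 0.23. SDC1 lies at chr2:20200797-20225433, minus strand (GRCh38).

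SDC3, the long-bodied syndecan named from nerve tissue, was the one syndecan with a lower mean in HuCCT1/CD90+. It had 171, 163 and 130 RPM in HuCCT1/CD90− and 91.6, 126 and 105 RPM in HuCCT1/CD90+. The lines did not overlap, but only narrowly, with replicate 3 the lowest of HuCCT1/CD90− and replicate 2 the highest of HuCCT1/CD90+. The means were 155 ± 22.1 and 108 ± 17.6 RPM (SD, n = 3 each), and their log2 fold change was -0.52 (SE 0.17, 95% CI -0.98 to -0.061, adjusted p = 0.12 from limma). The adjusted p was 0.035 from limma with only genes of at least 1 RPM, 0.013 from edgeR and 0.011 from DESeq2, and it ran from 0.011 to 0.49 over the alternatives. SDC3 lies on chromosome 1 at chr1:30869467-30908761, minus strand (GRCh38), and genes of chromosome 1 that averaged 10 RPM or more had a median log2 fold change of -0.32. With the median of the 50 nearest such genes (-0.28) subtracted, the difference of SDC3 was -0.24 (adjusted p = 0.49 from limma). Together with SDC1 this made 5 members called instead of 3 under these settings, where 41.7% of the genes tested were called by limma with the 1 RPM minimum, 44.4% by edgeR and 37.1% by DESeq2. For SDC1 and SDC3 the limma fit over all 20811 genes was the more conservative one. It shared little of the spread between genes (0.449 prior degrees of freedom, against 7.23 over the 12062 genes of at least 1 RPM, beside 4 from the libraries). A missing call of SDC1 or SDC3 in it is therefore weak evidence. Of the 3939 genes this fit called, 3856 were above the floor in either line.

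SDC4, the syndecan of focal adhesions and a known partner of CD90 in adhesion, gave the most reads of the 10 genes in both lines. It had 222, 188 and 199 RPM in HuCCT1/CD90− and 254, 238 and 215 RPM in HuCCT1/CD90+. The libraries overlapped, with the lowest of HuCCT1/CD90+ under the highest of HuCCT1/CD90−. The means were 203 ± 17.8 and 236 ± 19.8 RPM (SD, n = 3 each), apart by a log2 fold change of 0.22 (SE 0.095, 95% CI -0.037 to 0.47, adjusted p = 0.22 from limma), which was 0.14 with the median of its neighbours subtracted. SDC4 lies at chr20:45325288-45348424, minus strand (GRCh38). Its processed pseudogene SDC4P on chromosome 22 has a row of its own and was at 0 in all libraries.

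**Figure D2:**
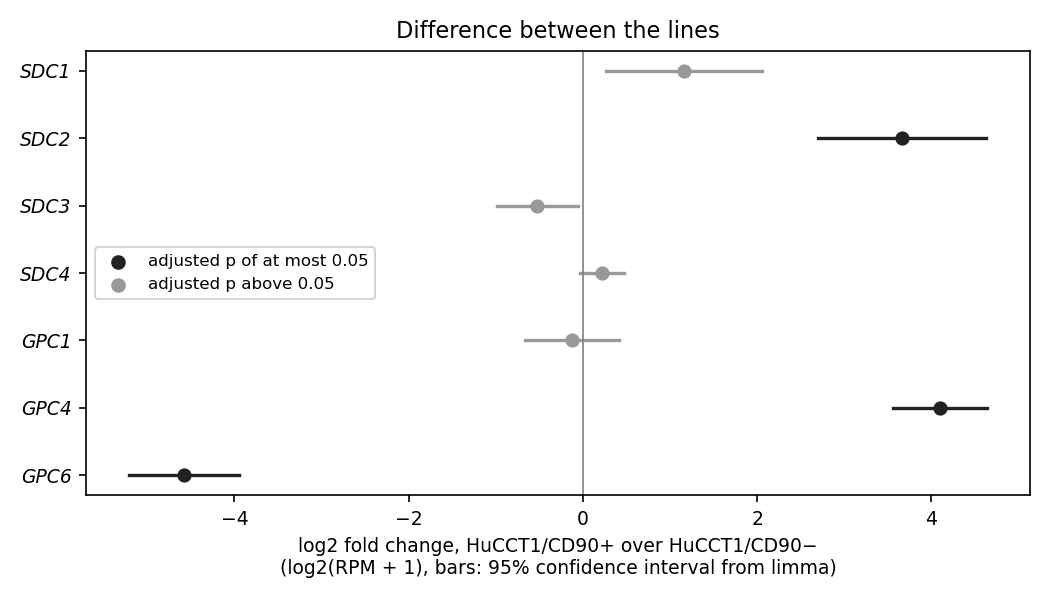
Log2 fold change of HuCCT1/CD90+ over HuCCT1/CD90− on log2(RPM + 1) for the 7 members above the floor in either line, with 95% confidence intervals from limma; black marks an adjusted p of at most 0.05 and grey an adjusted p above it. SDC2 at 3.66, GPC4 at 4.10 and GPC6 at -4.58 are the 3 called members, and the intervals of SDC4 and GPC1 include 0.

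The summed level of each family was taken next. The summed syndecan level was 401, 364 and 345 RPM in HuCCT1/CD90− and 470, 455 and 417 RPM in HuCCT1/CD90+, a ratio of means of 1.21. The summed glypican level was 59.3, 69.3 and 58.5 RPM in HuCCT1/CD90− and 49.4, 49.7 and 44.9 RPM in HuCCT1/CD90+, a ratio of means of 0.770. The libraries of the lines did not overlap for either sum. No test was run on sums, and reads of different amplicons are added as if amplified alike, which was not tested.

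The makeup of each sum shifted between the lines. SDC2 gave 1.81 ± 0.989% of syndecan reads in HuCCT1/CD90− and 20.1 ± 3.63% in HuCCT1/CD90+, and SDC3 gave 41.7 ± 3.70% and 24.1 ± 4.25% (SD, n = 3 each). SDC4 gave 54.9 ± 3.08% and 52.7 ± 1.30%, with libraries that overlapped, and SDC1 gave 1.59 ± 0.714% and 3.05 ± 0.666%. Among the glypicans GPC6 gave 46.2 ± 11.7% in HuCCT1/CD90− and 0.467 ± 0.243% in HuCCT1/CD90+. GPC4 gave 0.103 ± 0.178% and 36.4 ± 7.94%. GPC1 gave 53.6 ± 11.9% and 63.0 ± 7.78%, with libraries that overlapped.

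**Figure D3:**
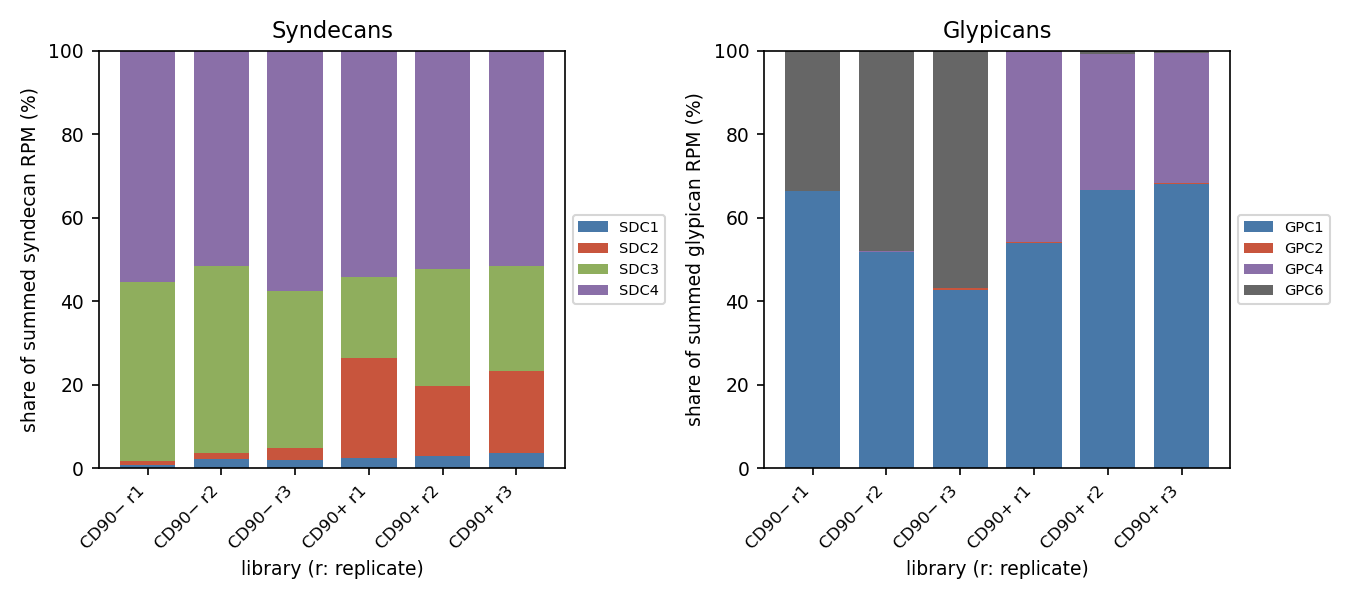
Share in percent of each gene in the summed RPM of the syndecans (left) and of the glypicans (right), 1 bar per library. SDC2 widens from 1.81% to 20.1% of the syndecan sum on average, and GPC6 at 46.2% of the glypican sum in HuCCT1/CD90− gives way to GPC4 at 36.4% in HuCCT1/CD90+.

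Ordered by amplicon reads, the genes ran differently in the lines. In HuCCT1/CD90− the order was SDC4, SDC3, GPC1, GPC6, SDC2, SDC1 and then GPC4. GPC1 and GPC6 overlapped there, as did SDC2 and SDC1. In HuCCT1/CD90+ it was SDC4, SDC3, SDC2, GPC1, GPC4, SDC1 and then GPC6, with overlap of SDC3 and SDC2 and of GPC4 and SDC1. SDC4 was above 95.3% of all genes of the table in HuCCT1/CD90− and above 96.1% in HuCCT1/CD90+. An amplicon has about the same length in every gene of such panels, so no length correction was made, but amplicons may differ in yield and an order between genes is only that of their reads.

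The genes around each member on its chromosome were compared with it, 5 on each side, against 18.9% called among all genes. Beside GPC6 none of the 10 was called, although SLITRK5 (-0.63) was with the block (adjusted p = 0.042 from limma), and 6 were above the floor with a median log2 fold change of -0.26. Beside GPC4 only MBNL3, a splicing regulator, was called, at 0.62 (adjusted p = 0.049 from limma, and 0.090 with the block). The genes directly beside them, TFDP3 and GPC3 at GPC4 and GPC5 and DCT at GPC6, had no reads. Beside SDC2 the adjoining gene CPQ, a secreted peptidase, rose from 1.02 ± 0.155 to 8.21 ± 1.08 RPM (a log2 change of 2.19, adjusted p = 0.0011 from limma), and MATN2, a matrix protein, had 19.6 ± 1.497 and 35.5 ± 4.46 RPM (0.82, adjusted p = 0.013, and 0.067 with the block). PTDSS1, on the other side of SDC2, differed by only -0.12 (adjusted p = 0.89 from limma). The block also gave calls to ANKMY1 (-0.80, adjusted p = 0.045) and RNPEPL1 (0.66, adjusted p = 0.014) beside GPC1 and SNRNP40 (-0.40, adjusted p = 0.035) beside SDC3, all from limma. Beside SDC3, LAPTM5 (-1.57, adjusted p = 0.018, and 0.073 with the block) and FABP3 (-1.55, adjusted p = 0.0093) were called lower by limma. Beside SDC1, which was not called, WDR35, a protein of ciliary transport, fell (-1.84, adjusted p = 0.0019 from limma). Beside GPC1, also not called, the histone deacetylase HDAC4 fell (-1.72, adjusted p = 0.0018 from limma). Around SDC4, likewise not called, 3 genes were called higher and 1 lower. Of these, the secreted protein WFDC2 had the largest difference (2.48, adjusted p = 0.00036 from limma), above that of CPQ, and DBNDD2 was at 0.48 (adjusted p = 0.0061). SLPI, a protease inhibitor, was at 0.76 (adjusted p = 0.035 from limma, and up to 0.11 without 1 library), and PIGT, an enzyme of GPI anchor attachment, was at -0.37 (adjusted p = 0.017, and 0.081 with the block). Genes of the MATN and LAPTM families stood beside several syndecans, LAPTM4A and MATN3 at SDC1, LAPTM4B and MATN2 at SDC2, LAPTM5 and MATN1 at SDC3 and MATN4 at SDC4.

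**Figure D4:**
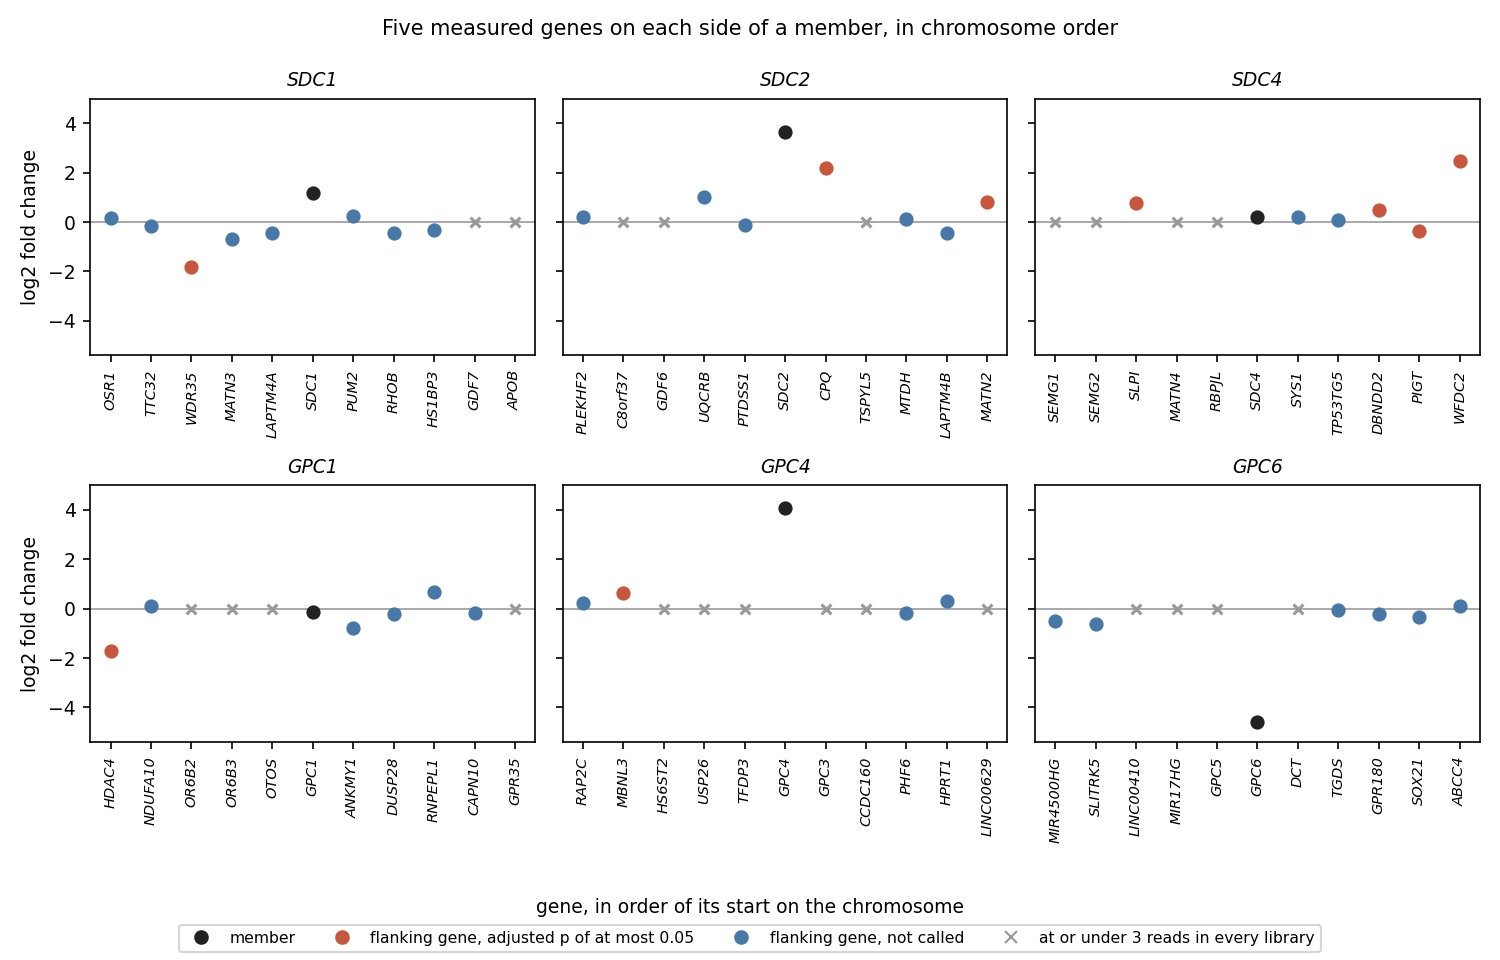
Log2 fold change (log2(RPM + 1)) of 6 members in black and of the 5 measured genes on each side, in the order of their starts; red marks flanking genes called in either direction, blue those not called, and crosses genes at or under 3 reads in every library. GPC6 at -4.58 and GPC4 at 4.10 stand away from their neighbours on this scale, which understates changes of weak genes. CPQ at 2.19 lies above 0 beside SDC2 at 3.66.

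The chains on these core proteins are made and edited by shared enzymes. Of 31 genes of heparan sulfate synthesis and editing 23 were above the floor, 3 were called higher and 7 lower, and the median log2 fold change of the 23 was -0.22, against -0.0087 for all 14098 genes above the floor, of which 27.4% were called. SULF1, an extracellular enzyme that removes 6-O-sulfates from finished chains, had 444, 440 and 419 RPM in HuCCT1/CD90− and 0.107, 0.349 and 0.109 RPM in HuCCT1/CD90+. All HuCCT1/CD90+ libraries were at the floor, and the summed reads, 13115 against 5, were 2356-fold lower after scaling to depth (exact 95% interval 1009 to 7257, log2 fold change -8.52, adjusted p = 9.7e-05 from limma). XYLT1, which adds the first sugar of the chain, fell from 40.2 ± 0.861 to 10.01 ± 1.53 RPM (a log2 change of -1.91, adjusted p = 0.0015 from limma). SULF2, the second 6-O-endosulfatase, had 15.3 ± 6.60 and 4.27 ± 1.24 RPM (-1.58, adjusted p = 0.047), a call that was lost without any 1 of the 6 libraries (adjusted p = 0.066 to 0.14). NDST1, which starts sulfation of the chain, rose from 109 ± 11.5 to 234 ± 21.2 RPM (1.09, adjusted p = 0.0062). The count of 10 called genes in this list was 6 without HuCCT1/CD90− replicate 1 or HuCCT1/CD90+ replicate 2 and 5 without HuCCT1/CD90− replicate 3 or HuCCT1/CD90+ replicate 3. It was 11 with the replicate block, where 13.1% of all genes were called. It was 14 with the 1 RPM minimum (41.7% of the genes tested were called), 14 with edgeR (44.4%) and 15 with DESeq2 (37.1%).

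Proteins that cut or release the core proteins formed a second list. Of its 15 genes 12 were above the floor, 2 were called higher and 3 lower, with a median log2 fold change of -0.17, where all genes above the floor had 27.4% called and a median of -0.0087. PCSK6, a proprotein convertase of the family that cleaves glypicans, had 0, 0 and 0.097 RPM in HuCCT1/CD90− and 20.2, 30.7 and 24.6 RPM in HuCCT1/CD90+. Its libraries did not overlap, and the summed reads, 679 against 1, differed 756-fold (exact 95% interval 135 to 29900, log2 fold change 4.65, adjusted p = 0.00052 from limma). TIMP1, an inhibitor of metalloproteinases, fell from 955 ± 86.1 to 322 ± 26.6 RPM (-1.56, adjusted p = 0.0018). MMP14, a membrane metalloproteinase that sheds SDC1, had 325 ± 94.0 and 137 ± 11.1 RPM (-1.20, adjusted p = 0.032 from limma, and 0.078 with the replicate block), and the call was lost without HuCCT1/CD90− replicate 3 or any 1 library of HuCCT1/CD90+ (adjusted p up to 0.11). TIMP2 had 830 ± 44.1 and 514 ± 62.7 RPM (-0.70, adjusted p = 0.018, and 0.052 with the replicate block), and the call was lost without any 1 library of HuCCT1/CD90− or without HuCCT1/CD90+ replicate 2 (adjusted p up to 0.065). The list had 3 called genes in place of 5 with the block (13.1% of all genes called). It also had 3 without HuCCT1/CD90− replicate 1 or 3 or without any 1 library of HuCCT1/CD90+.

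The tail of the syndecans ends in a short stretch that PDZ-domain proteins bind. The coding sequences of all 4 syndecans, SDC2 included, end in codons for the amino acids EFYA. The last bases of the coding sequence are shown for SDC1, SDC3 and SDC4 (GENCODE 29, GRCh38) because this stretch is what the adaptors below recognise and is nearly the same in each; capitals mark the last 12 bases before the stop codon. The regions, all on the minus strand, are chr2:20202766-20202804 for SDC1, chr1:30873211-30873249 for SDC3 and chr20:45327264-45327302 for SDC4.
SDC1: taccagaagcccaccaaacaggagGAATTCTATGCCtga
SDC3: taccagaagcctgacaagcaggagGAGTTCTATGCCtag
SDC4: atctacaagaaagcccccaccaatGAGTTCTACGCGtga

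All 17 genes of the list of tail partners were above the floor, 4 were called higher and 3 lower, and their median log2 fold change was -0.021, beside -0.0087 and 27.4% called for all genes above the floor. SDCBP2 (syntenin-2), a PDZ protein that binds this tail end, rose from 0.9903 ± 0.229 to 12.1 ± 2.26 RPM (a log2 change of 2.71, adjusted p = 0.0018 from limma). GIPC1 (synectin), a PDZ protein of SDC4 trafficking, rose from 215 ± 19.2 to 556 ± 31.8 RPM (1.37, adjusted p = 0.0018). SDCBP, the better known syntenin-1, had 17.4, 36.1 and 35.5 RPM against 35.6, 31.9 and 41.3 RPM and was not called (adjusted p = 0.58 from limma); it is named beside SDCBP2 after its values were seen. The 95% interval of the log2 fold change of SDCBP (-0.54 to 1.23) overlapped that of GIPC1 (1.14 to 1.596) but not that of SDCBP2 (2.25 to 3.16), and differences between the adaptors were not tested. PRKCA, the kinase bound by the tail of SDC4, had 112 ± 19.2 and 49.9 ± 6.75 RPM (-1.14, adjusted p = 0.018 from limma, and 0.0501 with the replicate block), a call also lost without HuCCT1/CD90− replicate 1 or 3 or HuCCT1/CD90+ replicate 1 or 2 (adjusted p up to 0.069). DNM2, the GTPase dynamin-2, fell from 44.8 ± 4.37 to 20.4 ± 1.26 RPM (-1.09, adjusted p = 0.0034). The list had 4 called genes in place of 7 with the block (13.1% of all genes called), and 3 or 4 without any 1 library.

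Other core proteins that carry heparan sulfate, always or in some forms, were compared next. Of 10 such genes 9 were above the floor, 2 were called higher and 5 lower, with a median log2 fold change of -0.80 (27.4% called and a median of -0.0087 over all genes above the floor). SPOCK1, a secreted proteoglycan also called testican-1, had 43.5, 72.2 and 71.8 RPM in HuCCT1/CD90− and 0.858, 1.16 and 1.19 RPM in HuCCT1/CD90+ (log2 fold change -4.90, adjusted p = 0.0010 from limma). SRGN (serglycin), the proteoglycan of secretory granules, fell from 63.5 ± 7.93 to 6.32 ± 1.40 RPM (-3.15, adjusted p = 0.0014). COL18A1, a basement membrane collagen, fell from 389 ± 33.2 to 88.7 ± 25.5 RPM (-2.16, adjusted p = 0.0090). CD44, the hyaluronan receptor with some heparan sulfate-bearing isoforms, rose from 1.67 ± 0.505 to 14.7 ± 0.457 RPM (2.57, adjusted p = 0.0018), and which of its isoforms the amplicon reads is not known. The basement membrane proteoglycans HSPG2 (adjusted p = 0.45 from limma) and AGRN (adjusted p = 0.29) were the ones above the floor without a call in this fit. On recovered reads edgeR called both (adjusted p = 0.040 for HSPG2 and 0.049 for AGRN), and DESeq2 called HSPG2 (adjusted p = 0.044) but not AGRN (adjusted p = 0.062).

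Ligands that bind the chains and their receptors formed the next list. Of 27 genes 21 were above the floor, 3 were called higher and 6 lower, with a median log2 fold change of -0.29; over all genes above the floor 27.4% were called and the median was -0.0087. ROBO1, the receptor of SLIT proteins, had 78.8, 71.9 and 90.3 RPM in HuCCT1/CD90− and 0.536, 0.582 and 0.217 RPM in HuCCT1/CD90+ (log2 fold change -5.82, adjusted p = 0.00034 from limma). WNT5A, a WNT ligand, had 49.6, 68.4 and 72.7 RPM against 0.214, 0 and 0.217 RPM, and its summed reads were 429-fold lower (exact 95% interval 167 to 1577; log2 fold change -5.81, adjusted p = 0.00043 from limma). Neither gene had a HuCCT1/CD90+ library above 1 RPM. PTN (pleiotrophin), a heparin-binding growth factor, fell from 17.7 ± 1.81 to 0.478 ± 0.159 RPM (-3.66, adjusted p = 0.00043). HBEGF, the heparin-binding ligand of the EGF receptor, rose from 18.7 ± 3.33 to 143 ± 12.8 RPM (2.88, adjusted p = 0.0012).

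Matrix proteins and integrins that work with syndecans in adhesion formed the last list. All 13 were above the floor, 3 were called higher and 4 lower, with a median log2 fold change of -0.41, set against 27.4% called and a median of -0.0087 for all genes above the floor. ITGB3, the β3 chain of the integrin to which CD90 binds, had 16.2, 22.6 and 23.4 RPM in HuCCT1/CD90− and 0.858, 1.51 and 0.651 RPM in HuCCT1/CD90+ (log2 fold change -3.44, adjusted p = 0.0020 from limma). ITGA2, a collagen receptor chain, rose from 53.5 ± 12.04 to 177 ± 15.01 RPM (1.73, adjusted p = 0.0083). FN1 (fibronectin), bound by SDC4, had 47.3 ± 10.5 and 14.7 ± 3.40 RPM (-1.62, adjusted p = 0.020 from limma), a call lost without HuCCT1/CD90− replicate 2 or 3 or HuCCT1/CD90+ replicate 2 or 3 (adjusted p up to 0.076). The list had 4 called genes in place of 7 with the block (13.1% of all genes called). It also had 4 without HuCCT1/CD90+ replicate 2 or 3, and 3 without HuCCT1/CD90− replicate 3.

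**Figure D5:**
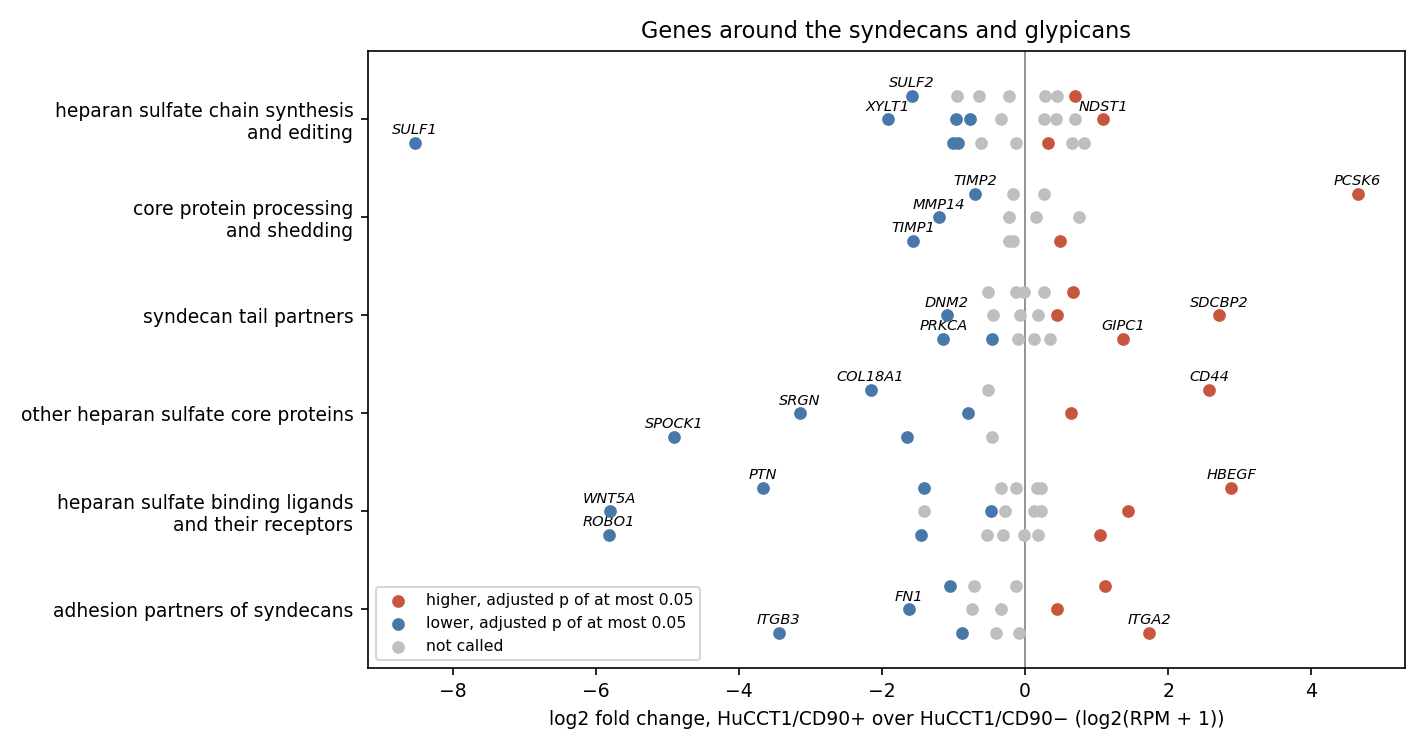
Log2 fold change (log2(RPM + 1)) of the genes above the floor in 6 lists around the syndecans and glypicans, 1 point per gene; red and blue mark genes called higher and lower in HuCCT1/CD90+ by limma, grey those not called, and only genes named in the text carry a label; points are set apart vertically only to show them. SULF1 at -8.52 is the farthest point to the left and PCSK6 at 4.65 the farthest to the right.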

How the data were processed

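Total RNA of 6 HuCCT1 libraries, 3 per line, was amplified by the authors with the Ion AmpliSeq Transcriptome panel, sequenced (Ion GeneStudio S5 Prime) and counted per gene by the ampliSeqRNA plugin. The authors deposited RPM values rounded to 3 decimals for 20811 genes, and 3805 of these had no read anywhere; the submitters' processing notes name hg19 and Transcriptome Analysis Console. A gene read from 1 amplicon depends on the isoforms that hold it. Whole reads were recovered for at least 99.9% of the values of each library, within that rounding. GENCODE 29 (GRCh38) gave positions for 18561 genes by symbol, and RefSeq (GRCh38.p14) gave promoter windows for 8 of the 10 members.

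Values were taken to log2(RPM + 1) and fitted for all genes by lmFit and eBayes (limma 3.58.1, R 4.3.3; no replicate block, two-sided, Benjamini-Hochberg); every adjusted p with no other name is from limma. Alternatives were offsets of 0.1 and 5 RPM, means of at least 1 or 10 RPM, quantile normalization, median centring, trend and robust settings, the replicate block, leaving out each library, subtraction of the median over the 50 closest genes averaging 10 RPM or more, a fold of 1.5 with an unadjusted p, and, on recovered reads, edgeR 4.0.16 (filterByExpr, TMM, quasi-likelihood; 5357 genes called) and DESeq2 1.42.0 (5328 called). The limma fit called 3939. Count intervals are exact at 95%. Libraries with the same number deviated together from their line means (r = 0.21, 0.32 and 0.18; other pairs -0.29 to 0.07), so the numbers were taken as a pairing, on this evidence only. Deviations from a line mean cancel over the libraries of that line, so the values of the other pairs depend on those of the same-numbered pairs. No 2 libraries agreed within sampling noise. Scripts were tested on simulated data, where the limma fits over all genes came close to the set folds but called few of the changed genes. The members and lists were chosen with earlier results of these data known. From each list, the called genes averaging at least 1 RPM with the largest absolute log2 fold change, up to 4, are named, with the members, THY1 and the cell type markers; 1 gene of the adhesion list that this rule picks is not reported here, and flanking genes and others were named after their values were seen.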

Additional observations from a re-analysis of the deposited data

How the results depend on the processing

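The calls of SDC4, GPC1, GPC4 and GPC6 were the same under every alternative that gave a value, and GPC1 changed direction in 1 of them: its log2 fold change was 0.0035 without HuCCT1/CD90− replicate 1 and ran from -0.31 to 0.0035 as each library was left out. A minimum of 10 RPM left no value for SDC1 and GPC4. SDC2 lost its call with the replicate block (3.66, adjusted p = 0.051). SDC1 gained a call with only genes of at least 1 RPM (1.16), with edgeR (1.24), with DESeq2 (1.25) and at a fold of 1.5 with an unadjusted p (1.16), and in 2 combinations chosen after seeing the data, the 1 RPM minimum with the block (1.16) or with neighbouring genes subtracted (1.22). SDC3 gained a call with minimums of 1 or 10 RPM (-0.52 for both), edgeR (-0.53), DESeq2 (-0.52) and the 1 RPM minimum with the block (-0.52). The count of members called was thus 5 in place of 3 with the 1 RPM minimum, with or without the block, with edgeR and with DESeq2, where 41.7%, 44.4% and 37.1% of the genes tested were called (1 RPM minimum, edgeR, DESeq2). The 1 RPM minimum changes only the genes in the limma fit, whose prior degrees of freedom were 0.449 without it and 7.23 with it; for edgeR and DESeq2 the cause was not tested. The count of members was 2 with the block alone and 4 at a fold of 1.5 with an unadjusted p (20.1% of all genes). It was 4 with the 1 RPM minimum and neighbouring genes subtracted, and 3 as each library was left out. Shares of all genes were not counted with libraries left out, with neighbouring genes subtracted, or with the 1 RPM minimum and the block together. Counts under those settings, of members or in lists, are not read as results. The block took the called genes of the whole table from 3939 to 2729 (13.1%), and called 3 genes of the shedding list, 4 of the tail partners and 4 of the adhesion list. Leaving out each library gave 5 to 8 genes for heparan sulfate synthesis, 3 to 4 for shedding, 3 to 4 for tail partners and 3 to 6 for adhesion. Subtracting neighbouring genes gave 6 for heparan sulfate synthesis. Called genes with edgeR and DESeq2 numbered 14 and 15 for heparan sulfate synthesis, 6 and 6 for shedding, 7 and 7 for tail partners, 9 and 8 for other core proteins, 10 and 10 for ligands and 9 and 9 for adhesion. For the shares the alternatives were only to leave out each of 3 libraries, which cannot move a mean by 1 SD and shows nothing of stability; the share of SDC1 in HuCCT1/CD90−, for one, ran from 1.33 to 2.00%. With TMM-scaled reads the summed levels of both families moved by less than 1 SD. At this depth levels up to 0.284 to 0.349 RPM could not be told from 0.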
